A study of Homo sapiens with 43 samples.

Results

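Total RNA polymerase II (Pol II) was mapped in SUDHL5 after 2 h of CDK-TCIP1 and compared with DMSO. The comparison takes the 6 deposited peak lists of SUDHL5 made with the antibody 8WG16: 3 lists from cells given 30 nM CDK-TCIP1 for 2 h and 3 lists from cells given DMSO for 4 h, out of 33 peak lists and 43 samples in the series. Both groups were kept in 0.1% DMSO, and 50 µg of chromatin and 5 µg of antibody went into each precipitation. DMSO was mapped at 4 h, so the compound and the time in culture cannot be told apart. SUDHL5 is a single established line of diffuse large B-cell lymphoma, and the labels give it no genetic change. Nothing in the labels says that the 3 replicates of a group were separate cultures, so p-values measure only the spread between these samples.

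Pol II transcribes all protein-coding genes, and 8WG16 binds the repeats of its largest subunit. After starting, the enzyme often halts shortly downstream of the start. It is released when P-TEFb, a complex of the kinase CDK9 and a cyclin, phosphorylates the polymerase and its pausing factors. BCL6 is a repressor that keeps cell-cycle inhibitor, DNA-damage and differentiation genes low in germinal-centre B cells and in lymphomas that arise from them. CDK-TCIP1, a small molecule with a ligand at each end, was made to hold CDK9 and BCL6 together, and the comparison asks which genes held more or less polymerase after it was added.

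The replicate 1 lists were the shortest of each group, with 710 peaks in DMSO and 1214 after CDK-TCIP1. Replicates 2 and 3 held 3229 and 2028 peaks in DMSO and 4000 and 2385 after CDK-TCIP1. Read totals are not in peak lists, so depth is unknown. The fold enrichment and -log10 p of each peak gave back a whole number of fragments at its summit and a background for at least 99.97% of the peaks of every list, under the Poisson model of MACS2. The lowest background, which measures depth only where peaks were called with the usual scaling of MACS2, was 1.38, 1.43 and 1.34 fragments in DMSO and 1.48, 1.45 and 1.36 after CDK-TCIP1. The lowest summit called was 8 or 9 fragments in each of the 6 lists. Below, summits are given in fragments, 0 stands for no called peak and not for absent polymerase, and values run from replicate 1 to 3. The labelled cell type was checked against marker genes: CD79A, CD79B, CD22, CD37, PAX5 and BCL6 had one in at least 1 list and MS4A1 did not. Of 9 T-cell markers 1 had a peak (CD3E), of 10 myeloid markers 1 (CD68, in 1 treated list), and of 12 genes silent in B cells 0.

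No property of the lists as a whole differed beyond the spread between lists. There were 2533 ± 1399 peaks per list after CDK-TCIP1 against 1989 ± 1260 in DMSO (SD over 3 lists), a ratio of geometric means of 1.36 (p = 0.6 in a two-sided exact permutation test). With 3 against 3 lists that test cannot go below 0.1, so this design cannot pass 0.05. Without DMSO replicate 1 alone, the shortest list, the log2 ratio turned to -0.18, but the short treated replicate 1 stayed in that comparison. By replicate number, the ratios of treated to DMSO list length were 1.71, 1.24 and 1.18. Protein-coding genes with a peak within 1 kb of either gene end numbered 536, 2507 and 1814 in DMSO and 1022, 3327 and 2119 after CDK-TCIP1 (ratio 1.44, exact permutation p = 0.6), and the groups overlapped. The share of peaks at gene ends was 66.8%, 66.9% and 75.6% in DMSO and 73.5%, 71.0% and 76.9% after CDK-TCIP1, 4.05 percentage points higher in the treated mean (exact permutation p = 0.3). The share of peaks between genes was 3.33 percentage points lower in the treated mean, at 10.5 ± 1.92% against 13.8 ± 3.65% (SD, n = 3 each, exact permutation p = 0.3). Peaks inside genes and away from gene ends made up 15.7 ± 1.47% of treated and 16.4 ± 2.75% of DMSO lists. The exact permutation p was 0.7 (SD, n = 3 each). These shares count called peaks and do not measure release of polymerase. Whether the antibody binds paused and released polymerase equally well was not tested.

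**Figure D1:**
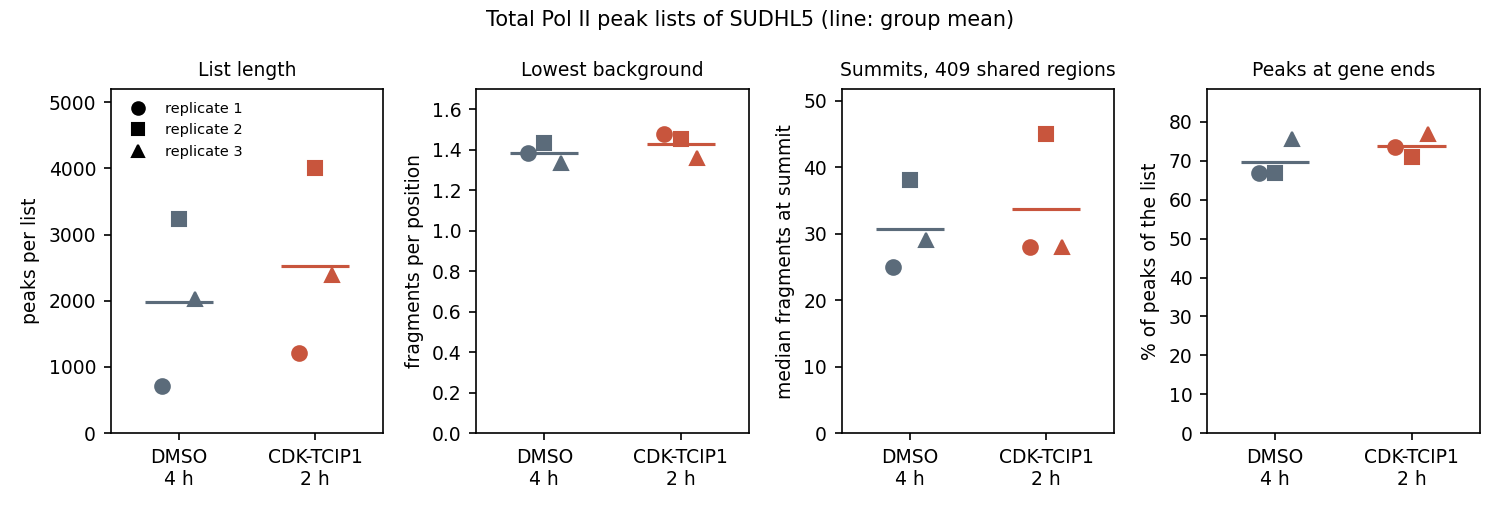
Each panel plots 1 value per list (points; the shape gives the replicate) for DMSO at 4 h and CDK-TCIP1 at 2 h, with a line at the group mean: peaks per list, the lowest background in fragments, the median summit fragments over the 409 regions found in all 6 lists, and the percent of peaks within 1 kb of a gene end. Replicate 1 has the shortest list of each group (710 and 1214 peaks), and the groups overlap in all 4 panels.

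Gained genes are those with a peak within 1 kb of a gene end in each treated list and in 0 DMSO lists, and lost genes are the reverse. Unless a region is named, the values of a gene are the fragments at its highest peak in that window, and 0 means no peak there, whatever lies elsewhere over the gene. These values are not scaled between lists, and whether the groups overlap was not counted over all genes. With 3 against 3 lists, 34 of the 4328 genes with a peak in any list were gained (0.786%) and 1 was lost (0.0231%). Since the short replicate 1 lists decide these counts, the call was also made over replicates 2 and 3 alone. There 247 of 4299 genes were gained (5.75%) and 55 were lost (1.28%). No test per gene exists for such calls, and the treated lists were also the longer ones. When the 2028 top peaks were taken from each of those 4 lists, 127 genes were gained and 93 lost, with 88 of the gained and 27 of the lost genes kept. When the 710 top peaks were taken from each of the 6 lists, 13 were gained and 4 lost, and 2 of the 34 gained genes were kept. Of the 4328 genes 1397 had a peak in equally many lists of both groups, 370 of them in all 6 lists. A further 2105 had a peak in more treated lists and 826 in more DMSO lists, and 1067 of the former and 443 of the latter rested on 1 list alone.

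**Figure D2:**
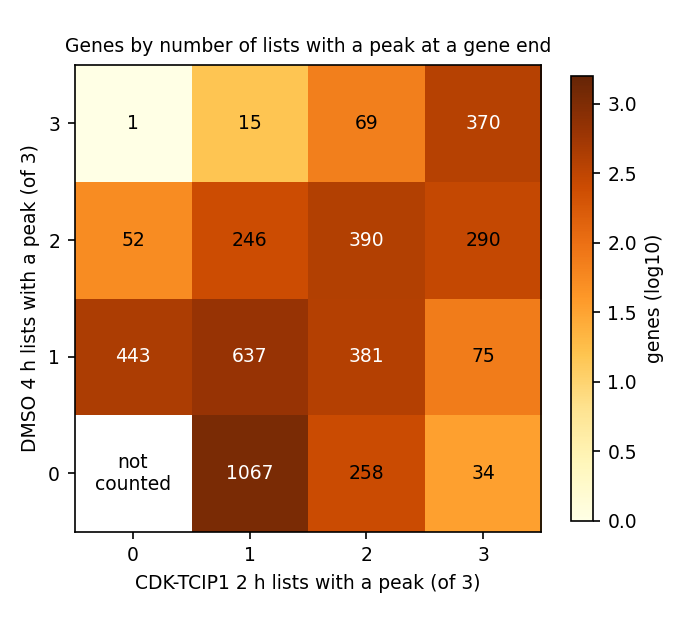
The grid counts genes by how many of the 3 CDK-TCIP1 lists (horizontal) and the 3 DMSO lists (vertical) had a peak within 1 kb of a gene end, shaded by log10 of the count. The corners hold 34 genes with peaks in treated lists alone, 1 in DMSO lists alone and 370 in all 6.

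Gained and lost peaks were small. The 34 gained genes had a median of 16.7 fragments at the summit (mean of the treated lists, range 10.0 to 35.3), against 37.3 for the 370 genes with a peak in all 6 lists. The 247 genes gained over replicates 2 and 3 and the 55 lost had the same median, 15.5 fragments. In 5 of the 34 gained genes, and in 89 of the 247 and 14 of the 55, every peak reached at least 2 times the lowest summit called in its list. For 0 of the 34 did every peak reach 3 times that level. In 3 of the 34, 14 of the 247 and 3 of the 55, the other group had a peak elsewhere over the gene. The 247 gained genes used 234 distinct regions and the 55 lost genes 51, since neighbours can share a window.

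HES6, a transcriptional cofactor of the hairy and enhancer of split family, had the highest gained peak of the 3 against 3 call and kept it under each of the 6 other settings tried on the lists as a whole (stricter q, gene start alone, summit alone, wider window, peaks anywhere over the gene, equal top peaks). Its summit held 47, 37 and 22 fragments in the treated lists and 0 in the 3 DMSO lists. TAOK1 (18, 17 and 16), ZNF296 (18, 19 and 13), CYP20A1 (16, 22 and 24) and SLC10A3 (17, 14 and 13) held under all of those settings but equal top peaks. DUSP1, a phosphatase that switches off MAP kinases and is itself induced by them, had 17, 29 and 13 fragments in the treated lists and 0 in DMSO. With -log10 q of at least 5 DUSP1 was no longer called, nor with equal top peaks.

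Promoter sequences are shown for 6 genes on which these results turn: HES6 and DUSP1 (gained in 3 of 3 treated lists), ICE2 and CDKN1B (gained over replicates 2 and 3), and HEXIM1 and BCL6 (occupied in both groups). They run from 250 bases before the annotated start to 50 after it, 5′ to 3′ on the strand of the gene, from RefSeq on GRCh38.p14. The windows are chr2:238239989-238240288 (HES6, minus strand), chr5:172771146-172771445 (DUSP1, minus), chr15:60479093-60479392 (ICE2, minus), chr12:12717118-12717417 (CDKN1B, plus), chr17:45148225-45148524 (HEXIM1, plus) and chr3:187745419-187745718 (BCL6, minus). Capitals mark matches on either strand to the TATA box letters TATAAA, the cAMP response element TGACGTCA, the BCL6 site TTCCTNGAA or the ETS site CCGGAAGT, and CDKN1B holds none of the 4.
HES6: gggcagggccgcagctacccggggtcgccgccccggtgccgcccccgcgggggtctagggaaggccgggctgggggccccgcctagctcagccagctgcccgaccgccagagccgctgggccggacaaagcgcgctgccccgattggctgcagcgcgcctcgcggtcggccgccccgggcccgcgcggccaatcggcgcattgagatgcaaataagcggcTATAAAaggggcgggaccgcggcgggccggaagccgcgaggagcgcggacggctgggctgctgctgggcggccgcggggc
DUSP1: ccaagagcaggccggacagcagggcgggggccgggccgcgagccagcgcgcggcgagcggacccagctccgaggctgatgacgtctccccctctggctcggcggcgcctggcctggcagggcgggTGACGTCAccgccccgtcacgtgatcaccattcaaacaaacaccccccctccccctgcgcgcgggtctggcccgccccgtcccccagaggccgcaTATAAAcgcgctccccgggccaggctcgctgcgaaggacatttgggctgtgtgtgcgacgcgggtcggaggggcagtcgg
ICE2: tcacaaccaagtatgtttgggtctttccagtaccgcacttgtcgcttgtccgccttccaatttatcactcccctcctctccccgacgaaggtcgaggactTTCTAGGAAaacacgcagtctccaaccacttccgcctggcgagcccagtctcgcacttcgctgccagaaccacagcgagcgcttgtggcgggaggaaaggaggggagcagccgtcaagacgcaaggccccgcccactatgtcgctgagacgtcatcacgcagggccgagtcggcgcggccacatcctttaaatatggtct
CDKN1B: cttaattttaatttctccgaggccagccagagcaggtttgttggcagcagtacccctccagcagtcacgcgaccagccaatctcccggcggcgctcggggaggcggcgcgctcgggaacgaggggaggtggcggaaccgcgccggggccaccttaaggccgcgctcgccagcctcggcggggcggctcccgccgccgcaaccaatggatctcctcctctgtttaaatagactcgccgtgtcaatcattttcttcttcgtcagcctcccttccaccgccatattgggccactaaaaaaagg
HEXIM1: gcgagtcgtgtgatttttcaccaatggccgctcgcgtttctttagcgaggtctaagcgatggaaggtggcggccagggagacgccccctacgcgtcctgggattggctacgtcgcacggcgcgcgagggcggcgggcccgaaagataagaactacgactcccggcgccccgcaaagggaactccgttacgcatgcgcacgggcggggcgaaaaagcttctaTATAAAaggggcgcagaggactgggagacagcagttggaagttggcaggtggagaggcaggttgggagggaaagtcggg
BCL6: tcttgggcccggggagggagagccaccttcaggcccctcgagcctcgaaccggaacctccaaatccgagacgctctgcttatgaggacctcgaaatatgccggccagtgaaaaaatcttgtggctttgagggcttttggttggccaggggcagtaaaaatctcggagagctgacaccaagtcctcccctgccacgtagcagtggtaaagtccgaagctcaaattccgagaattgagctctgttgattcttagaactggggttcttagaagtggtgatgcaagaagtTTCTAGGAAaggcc
With the annotated start as position 0, the first letter of TATAAA lay at -30 in HES6, -30 in DUSP1 and -29 in HEXIM1. TGACGTCA lay at -125 in DUSP1, and the BCL6 letters, on the opposite strand, at -150 in ICE2 and 36 in BCL6. The peaks of HES6 and DUSP1 overlapped these windows in the 3 treated lists and in 0 DMSO lists, those of HEXIM1 in all 6, and those of BCL6 in DMSO replicate 2 and the 3 treated lists.

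**Figure D3:**
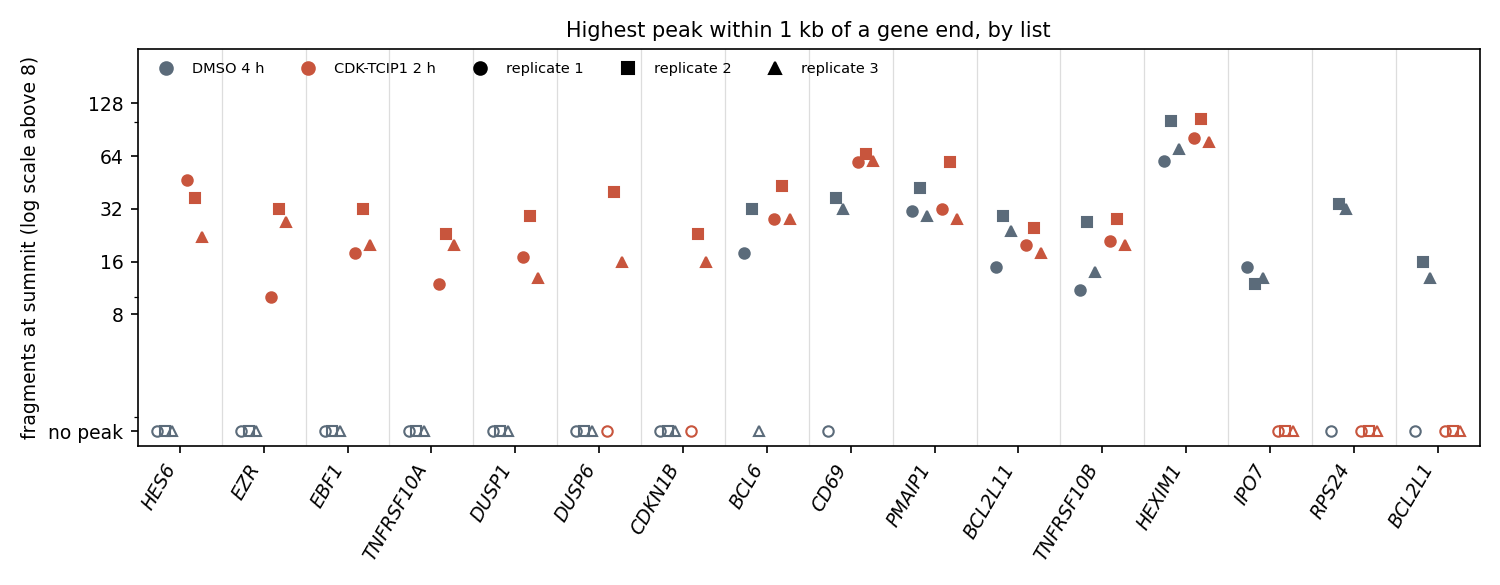
Fragments at the summit of the highest peak within 1 kb of a gene end (vertical, log scale above 8; open symbols at the bottom mark lists with no peak there) for 16 named genes, by list. HES6, EZR, EBF1, TNFRSF10A and DUSP1 have peaks in the 3 CDK-TCIP1 lists and in 0 DMSO lists, IPO7 the reverse, and PMAIP1, BCL2L11, TNFRSF10B and HEXIM1 have peaks in all 6 lists with overlapping groups.

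The other leading genes of the 3 against 3 call were of mixed function. EBF1, the factor that sets up the B-cell programme, had 18, 32 and 20 fragments in the treated lists and 0 in DMSO. This peak (region chr5:159100377-159101223) lay 460 bp outside the outer gene end, over the long non-coding RNA gene LINC02202. A region inside EBF1 near that end (chr5:159099035-159099540) had 0, 26 and 15 fragments in the treated lists and 0 in DMSO. Only treated replicates 2 and 3 had a peak over the window around the listed start. FNTA, the shared alpha subunit of enzymes that attach lipids to proteins, had 19, 30 and 21 fragments in the treated lists. ESCO1, which acetylates cohesin, had 15, 20 and 17, and TAF1B, a subunit of the Pol I initiation factor, 13, 23 and 17. ELF1, an ETS factor, and its divergent neighbour WBP4 shared a peak of 11, 22 and 16 fragments. EZR, which links membrane to actin, had 10, 32 and 27, but a DMSO replicate 2 peak of 27 fragments stood at its listed start over 1 kb inside the outer end, so its gain rests on the outer end alone. Among the remaining gained genes were RALGPS2, OGA, BUD13 and ZPR1, TRIM13, INTS2, GEMIN7, SACM1L, MBD4 and IFT122, STIM2, CNOT6L, LTB, ESYT2, ALG2 and SEC61B, AAMDC and C19orf25, with summits of 9 to 24 fragments. JMJD1C and REEP3, neighbours that point away from each other on chromosome 10, shared a gained peak of 12, 15 and 13 fragments. The same stretch held gained regions inside JMJD1C (chr10:63268754-63269473; 30, 39 and 20 fragments) and 4558 bp from REEP3 (chr10:63629687-63630455; 27, 41 and 36).

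Over replicates 2 and 3, the highest-ranked gained genes included the shared window of POLH, a translesion DNA polymerase, and XPO5, the exporter of microRNA precursors, with 44 and 20 fragments. RBBP5, a core subunit of H3K4 methyltransferases, had 43 and 21 fragments, RALY, an RNA-binding protein, 38 and 25, and ARID4A, which binds the retinoblastoma protein, 32 and 29. STXBP3 had 33 and 20, and the zinc finger genes ZNF398 and ZNF425 shared 34 and 22. DUSP6, a phosphatase for ERK, had 40 and 16, and ICE2, part of the complex that serves small nuclear RNA genes, 33 and 16. Treated replicate 1 and the 3 DMSO lists had no peak within 1 kb of the ends of these genes, and DMSO replicate 2 had one of 11 fragments elsewhere over ZNF398.

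IPO7, a nuclear import receptor, was the 1 gene lost in the 3 against 3 call: its summits held 15, 12 and 13 fragments in DMSO, with 0 in the 3 treated lists and 0 in the 3 lists of 4 h. These are close to the lowest summit called, and with -log10 q of at least 5 no gene was lost. Over replicates 2 and 3, RPS24, a ribosomal protein, was among the leading lost genes and had 34 and 32 fragments in DMSO and 0 after 2 h, but 40 in replicate 2 at 4 h. EDEM1, which takes part in disposal of misfolded glycoproteins, had 23 and 23 in DMSO, and treated replicate 1 had a peak of 19. Treated replicate 2 also had a peak of 19 fragments over EDEM1, away from its ends. Others of the leading 10 were GSTP1 (19 and 20), HGH1 (19 and 15), BICD2 (18 and 15), MNT (16 and 16), ZC3H15 (20 and 15) and EEA1 (20 and 16). MNT is a repressor that opposes MYC, and GSTP1 conjugates glutathione.

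Of 20 genes that BCL6 is known to repress 7 had a peak at a gene end in any list, against 4328 of the 20033 protein-coding genes, and their calls went both ways. In replicates 2 and 3 the share of members with a peak was 30% and 20% in DMSO and 20% and 20% after CDK-TCIP1, against 12.5% and 9.06%, and 16.6% and 10.6%, of all protein-coding genes. There was 1 gained over replicates 2 and 3 (CDKN1B, 23 and 16 fragments) and 2 lost (BCL2L1 among them, with 16 and 13), beside 5.75% and 1.28% of the 4299 genes with a peak in those lists. CDKN1B encodes the kinase inhibitor p27, and its window also held 28 and 16 fragments in replicates 2 and 3 at 4 h. The gained region (chr12:12716584-12717938) overlapped the neighbouring gene GPR19 as well as CDKN1B. In treated replicate 3 its peak ranked 2012 of 2385 by -log10 q. CD69, an activation marker, had 0, 37 and 32 fragments in DMSO and 59, 66 and 60 after CDK-TCIP1 within 1 kb of a gene end. A further region inside CD69 (chr12:9757332-9759758) had 20, 34 and 15 in DMSO and 30, 63 and 25 after CDK-TCIP1, where the groups overlapped. CDKN1A (p21), PRDM1, the plasma-cell regulator, and CIITA, the switch of class II antigen presentation, had no peak in any of the 6 lists. BCL6 itself had 18, 32 and 0 fragments in DMSO and 28, 43 and 28 after CDK-TCIP1, and the groups overlapped. IRF2, an interferon regulatory factor, had 17, 18 and 15 in DMSO and 0, 19 and 0 after CDK-TCIP1 at its gene ends. Anywhere over IRF2, the treated lists held 18, 24 and 0.

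Of 28 pro-apoptotic genes 11 had a peak at a gene end in any list and 5 in all 6. Over replicates 2 and 3, 1 was gained and 0 were lost, beside 5.75% and 1.28% of the 4299 genes. Peaks stood in more treated lists at 4 and in more DMSO lists at 0, beside 2105 and 826 of the 4328 genes. The gained member was TNFRSF10A, a death receptor for TRAIL, with 12, 23 and 20 fragments in the treated lists. TNFRSF10B, the related receptor, had 11, 27 and 14 in DMSO and 21, 28 and 20 after CDK-TCIP1. PMAIP1 (NOXA) had 31, 42 and 29 in DMSO and 32, 59 and 28 after CDK-TCIP1, and BCL2L11 (BIM) had 15, 29 and 24 against 20, 25 and 18. All 3 of these groups of values overlapped. BBC3 (PUMA) had no peak at its gene ends, but elsewhere over the gene it had 31, 83 and 59 in DMSO and 60, 89 and 53 after CDK-TCIP1, where the groups overlapped. FOXO3 had no peak over the gene in any of the 6 lists. Among 10 anti-apoptotic genes 6 had a peak, with 0 gained and BCL2L1 (BCL-XL) lost over replicates 2 and 3. MCL1, picked after its values were seen, had 0, 32 and 27 fragments in DMSO and 42, 46 and 38 after CDK-TCIP1.

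Immediate-early genes, which are induced within minutes of a signal, had a peak at a gene end in any list at 18 of 27 members. Of these 13 had one in all 6 lists, among them FOS, FOSB, JUN, JUNB, EGR1 and IER2. DUSP1 and DUSP6 were gained over replicates 2 and 3 and 0 were lost, beside 5.75% and 1.28% of the 4299 genes. Peaks stood in more treated lists at 4 and in more DMSO lists at 0, beside 2105 and 826 of the 4328 genes. FOS had 53, 77 and 49 fragments in DMSO and 52, 98 and 58 after CDK-TCIP1, and EGR1 34, 46 and 34 against 37, 58 and 27, so these groups overlapped. DUSP5, picked after its values were seen, had 0, 17 and 14 in DMSO and 25, 35 and 21 after CDK-TCIP1. MYC, the growth regulator, had 0, 50 and 40 in DMSO and 52, 69 and 46 after CDK-TCIP1, and the groups overlapped.

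Germinal-centre B-cell genes were occupied at 21 of 31 members, with 2 gained (EBF1, and SERPINA9 with 20 and 16 fragments) and 0 lost over replicates 2 and 3, beside 5.75% and 1.28% of the 4299 genes. DMSO replicate 2 had a peak of 21 fragments elsewhere over SERPINA9. In the lists they numbered 8, 15 and 13 in DMSO and 10, 21 and 16 after CDK-TCIP1, or 25.8%, 48.4% and 41.9% against 32.3%, 67.7% and 51.6% of members. The same shares of all protein-coding genes were 2.68%, 12.5% and 9.06% against 5.10%, 16.6% and 10.6%. FOXO1, which drives cell-cycle inhibitors, had 0, 17 and 0 fragments in DMSO and 16, 36 and 20 after CDK-TCIP1, and PAX5, a B-cell identity factor, 17, 35 and 20 against 29, 39 and 29. Both groups of values overlapped. Of 12 plasma-cell genes 5 had a peak, with 0 gained and 0 lost, and XBP1 had 12, 20 and 15 against 13, 23 and 13.

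Genes of P-TEFb and the elongation complexes had a peak at 18 of 28 members. Over replicates 2 and 3, 1 was gained (ICE2) and 0 were lost, beside 5.75% and 1.28% of the 4299 genes. HEXIM1, an inhibitor of P-TEFb, had 60, 102 and 70 fragments in DMSO and 81, 104 and 77 after CDK-TCIP1, so the groups overlapped. CDK9 itself had 0, 0 and 0 in DMSO and 0, 12 and 0 after CDK-TCIP1. EAF2, a partner of ELL, had 0, 31 and 0 against 24, 47 and 32. Cell-cycle arrest genes were occupied at 16 of 20 members, with 1 gained (CDKN1B) and 1 lost over replicates 2 and 3, beside the same shares. CDKN2B (p15), picked after its values were seen, had 0, 27 and 22 in DMSO and 34, 39 and 32 after CDK-TCIP1. GADD45B had 86, 152 and 105 against 94, 161 and 100.

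Several other groups had few or no called members, beside 5.75% gained and 1.28% lost of the 4299 genes. Of 78 cytoplasmic ribosomal protein genes 68 had a peak and 24 had one in all 6 lists, with RPS7 gained (17 and 11 fragments) and 2 lost, RPS24 among them, over replicates 2 and 3, and 14 had more treated and 15 more DMSO lists. Of 47 clustered histone genes 41 had a peak, with 0 gained and 0 lost. NF-kB genes (12 of 20 occupied), heat shock genes (10 of 18), FOXO targets (7 of 15), BCL6 corepressors (6 of 17) and Pol II subunits and initiation factors (10 of 30) had 0 gained and 0 lost members. MYC and growth genes were occupied at 14 of 20 members, with MNT lost.

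Gained regions, like all regions, lay mostly at gene ends. Peaks of the 6 lists merged into 5574 regions, of which 33 were gained (0.592%) and 2 lost (0.0359%) in the 3 against 3 call. Over replicates 2 and 3, 249 of 5497 regions were gained (4.53%) and 79 lost (1.44%). Of the 249 gained regions 83.1% lay within 1 kb of a gene end and 3.61% between genes, against 67.7% and 13.1% of all 5574, and of the 79 lost regions 69.6% and 10.1% did. These shares have no test. Away from gene ends, the best-ranked gained regions after the one near REEP3 lay inside PALLD (chr4:168832005-168832368; 0, 38 and 26 fragments in the treated lists), LDB3 (chr10:86711819-86712487; 0, 25 and 21), RUBCN (chr3:197736020-197736837; 11, 23 and 17) and 2984 bp from IGF2BP3 (chr7:23473476-23474397; 0, 28 and 14). The best-ranked lost region lay inside LPXN, a leukocyte adhesion adaptor (chr11:58575295-58575959), with 0, 35 and 35 fragments in DMSO and 0 in the treated lists. Others were inside CAMK2D (chr4:113565024-113567030; 0, 28 and 19), THRAP3 (chr1:36224230-36224775; 0, 18 and 13) and LHPP (chr10:124547094-124548020; 0, 21 and 12), and 100869 bp from PRKX (chrX:3814519-3815221; 0, 15 and 14). In the 3 against 3 call, 1 lost region lay 7887 bp from TNFRSF8, which encodes CD30 (chr1:12152095-12152848; 16, 17 and 14).

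Where all 6 lists had a peak, summit heights could be compared directly, and no region passed the test. The 409 such regions had median summits of 25, 38 and 29 fragments in DMSO and 28, 45 and 28 after CDK-TCIP1. With each list centred on its median, limma called 0 regions higher and 0 lower at an adjusted p under 0.05, and 41 had an unadjusted p under 0.05 (23 higher, 18 lower; smallest adjusted p 0.322). After this centring the groups did not overlap in 30 regions with every treated list higher (7.33%) and 34 with every treated list lower (8.31%). The lowest p belonged to a region at the far end of VMP1, an autophagy gene (chr17:59842676-59847067), with 20, 42 and 29 fragments in DMSO and 20, 24 and 15 after CDK-TCIP1 (log2 ratio -0.71 ± 0.20, SE). ITPR2, a calcium channel of the endoplasmic reticulum (chr12:26832027-26834330), had 22, 21 and 20 against 32, 46 and 31 (0.65 ± 0.20). ZFP36L1, which destabilises mRNAs (chr14:68788722-68796446), had 52, 91 and 83 against 88, 158 and 97 (0.47 ± 0.15). All 3 had an adjusted p of 0.322 in limma.

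Other regions were picked from those with the lowest p after their values were seen. FOXP1, a B-cell transcription factor (chr3:71581323-71583963), had 14, 13 and 15 fragments in DMSO and 21, 32 and 18 after CDK-TCIP1 (log2 ratio 0.60). IRF2BP2, a corepressor (chr1:234610086-234611924), had 15, 26 and 26 against 27, 50 and 31 (0.56). NCL, nucleolin (chr2:231463235-231465192), had 33, 44 and 30 against 22, 34 and 24 (-0.55), and POR, the reductase that feeds cytochromes P450 (chr7:75914656-75915675), 61, 73 and 61 against 37, 71 and 48 (-0.49). By group, the median log2 ratio was 0.03 over 14 regions of immediate-early genes, -0.02 over 25 of ribosomal proteins, 0.12 over 7 of germinal-centre genes and 0.04 over 5 of pro-apoptotic genes, beside 0.01 over all 409. These medians are descriptions without a test. ZFP36L1 also shows what a gene-end window measures: within 1 kb of its ends the values were 0, 91 and 83 in DMSO and 16, 25 and 18 after CDK-TCIP1, because the long peak that holds its summit reached the window in DMSO replicates 2 and 3 and not in the treated lists.

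**Figure D4:**
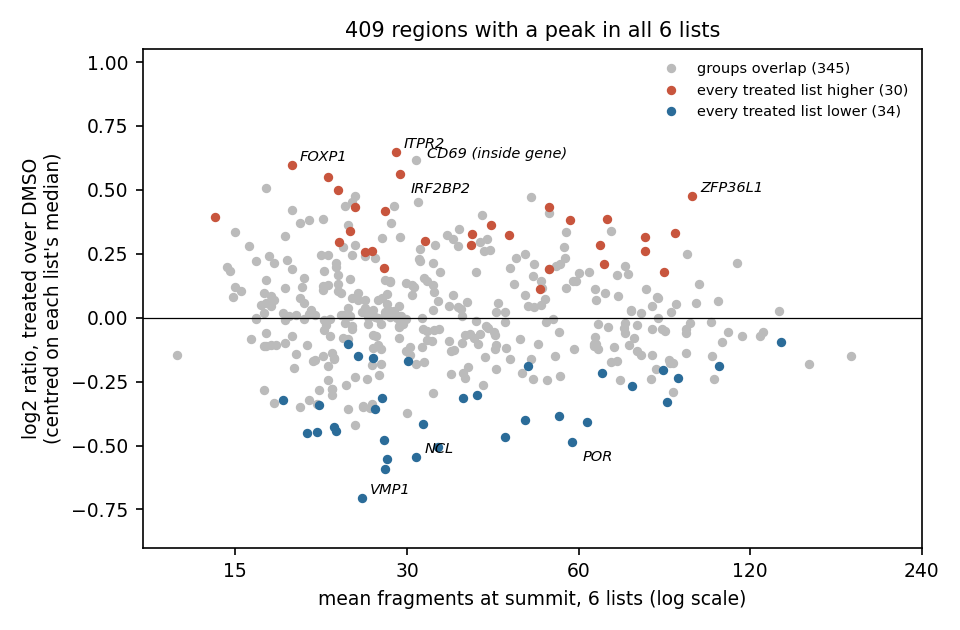
Each point is 1 of the 409 regions with a peak in all 6 lists: mean fragments at the summit (horizontal, log scale) against the log2 ratio of CDK-TCIP1 over DMSO after centring each list on its median (vertical). The 30 regions with every treated list higher and the 34 with every treated list lower spread to both sides of 0, and limma called 0 regions.

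The summit position at shared starts differed little between groups, while the downstream edge lay further out in the treated list of each same-numbered pair. At 298 genes with a peak over the start in all 6 lists, the median summit lay 57, 53 and 54.5 bp downstream of the start in DMSO and 54.5, 59 and 55 bp after CDK-TCIP1, where paused polymerase is usually found (exact permutation p = 0.6, n = 3 each). The spread was wide: summits 0 to 300 bp downstream made up 52.3%, 57.0% and 52.3% in DMSO and 53.4%, 54.7% and 50.7% after CDK-TCIP1. The downstream edge of the peak lay at 347, 666 and 523 bp in DMSO and at 444, 876 and 635.5 bp after CDK-TCIP1, a mean of 139.8 bp further (exact permutation p = 0.5). Peaks that reached over 1 kb downstream made up 16.4%, 33.6% and 21.1% in DMSO and 19.1%, 44.97% and 30.5% after CDK-TCIP1 (exact permutation p = 0.6). The groups overlapped in each of these measures, and the lists with higher summits at these starts, replicate 2 of both groups (42 and 49 fragments against 27 to 32), also had the widest peaks. Over replicates 2 and 3 alone, 842 genes had such a peak in all of those lists. There the downstream edge lay at 428.5 and 360.5 bp in DMSO and at 542 and 416 bp after CDK-TCIP1.

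Promoter letters were counted in each set of genes, without a test. TATAAA was found in 4 of the 29 promoters of 3 against 3 gained genes (13.8%) and in 4.39% of those gained and 2.22% of those lost over replicates 2 and 3. The shares were 20.1% for genes with a peak in all 6 lists, 6.36% for genes with a peak in any list and 9.63% for all 15842 promoters in the table. The BCL6 letters TTCCTNGAA were in 0 of the 29, in 1.46% and 2.22% of the other 2 sets and in 1.29% of all promoters. TGACGTCA was in 6.90%, 2.93% and 2.22%, beside 2.59% of all, and CCGGAAGT in 6.90%, 10.7% and 11.1%, beside 6.19% of all and 10.8% of genes with a peak in any list. Median GC content was 64.3%, 67.0% and 66.0% in the 3 sets and 66.0% over genes with a peak in any list. A match is a run of letters, not a bound site.

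Phosphorylated polymerase had a peak in DMSO at most gained genes, and likewise at most genes with a total Pol II peak in any list. Serine 5 phosphorylated polymerase, the form near starts, had a peak within 1 kb of a gene end in both DMSO lists at 32 of the 34 gained genes (94.1%) and at 86.6% of the 247, and in both CDK-TCIP1 2 h lists at 100% and 98.0%. Over all 4328 genes these shares were 85.9% and 97.2%. Serine 2 phosphorylated polymerase, the elongating form, had such peaks in both DMSO lists at 74.9% and in both treated lists at 51.0% of the 247 gained genes, against 85.5% and 56.4% of the 55 lost genes and 77.7% and 54.8% of all 4328. With the CDK9 antibody ab239364, CDK9 was gained at 2 h (both treated and neither DMSO list) at 77 of the 247 genes (31.2%), at 5 of the 55 (9.09%) and at 20.2% of all 4328. The 5 included ELOA, CDK1, RPS24 and IFT88. With CST2316S, the other CDK9 antibody, the shares were 23.5%, 21.8% and 18.6%. None of these differences was tested. The DMSO lists were of 4 h for Ser5P and Ser2P and of 2 h for CDK9. Shares that need a peak in both lists also depend on the lengths of those lists, which were not compared. EZR, ELF1, WBP4, ZNF296, GEMIN7, TNFRSF10A and FNTA gained CDK9 with both antibodies, as did CDKN1B and DUSP6, whereas HES6 had no CDK9 peak at its ends in any list of either antibody.

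The CDK-TCIP1 4 h lists of total Pol II share the DMSO lists, so their values are only set beside those of 2 h. Replicate 1 at 4 h held 138 peaks and none at the 34 gained genes. Replicates 2 and 3 at 4 h had a peak at 25 and 12 of the 34, at 53.4% and 23.9% of the 247, and at 56.5% and 30.3% of the 4328 genes with a peak in any of the 6 lists. HES6 had 31 fragments in replicate 2 at 4 h and 0 in replicates 1 and 3, DUSP1 had 32 in replicate 2 alone, and EBF1 had 20 and 16 in replicates 2 and 3. FNTA had no peak in any 4 h list. EZR had none at its ends, and replicate 2 at 4 h had one of 37 fragments elsewhere over the gene.

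**Figure D5:**
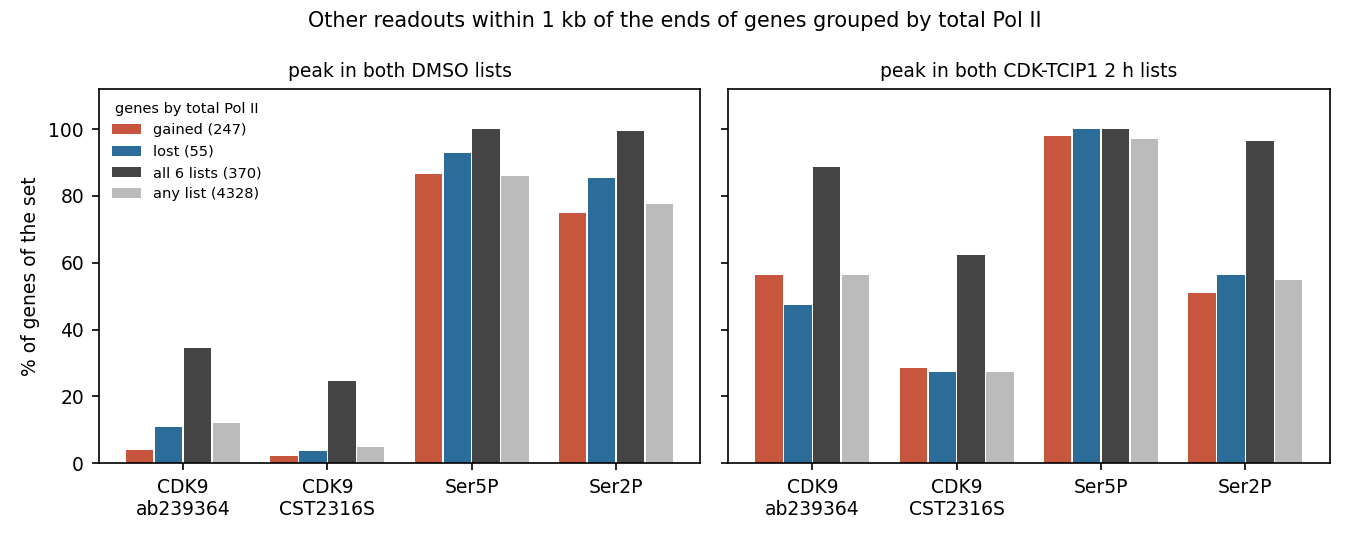
Bars give the percent of genes with a peak in both DMSO lists (left) and both CDK-TCIP1 2 h lists (right) of CDK9 (antibodies ab239364 and CST2316S) and of Ser5P and Ser2P polymerase, for genes grouped by total Pol II over replicates 2 and 3. DMSO is of 4 h for Ser5P and Ser2P and of 2 h for CDK9. Ser5P in both DMSO lists is at 86.6% of gained and 85.9% of all 4328 genes, and Ser2P in both treated lists is at 51.0% and 54.8%.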

How the data were processed

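ChIP-seq peak lists of total Pol II in SUDHL5 were used, 3 after 2 h of CDK-TCIP1 and 3 after 4 h of DMSO, with the lists of CDK9, Ser5P, Ser2P and Pol II at 4 h set beside them. The 4 lists of the other cell line were not used. Each deposited list gives the authors' fold enrichment for every peak, which is a ratio to that list's own background and is not scaled between lists. The authors' -log10 p and -log10 q values stand beside it in the deposited lists. The submitters' processing notes name MACS2 and Bowtie2 among the tools and hg38 and dm6 as builds, and the sources used here give no versions, control library or blacklist. Lists were deposited per sample. Fold enrichment depends on depth, so it was used within a list only.

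Whole summit fragments and their background were solved from the fold and p of each peak within 0.001 log10 units. Peaks on unplaced contigs (4 in the 6 lists) were left out. Genes were the 20033 RefSeq protein-coding genes on GRCh38.p14, the build hg38, with a start known for 15842. A gene held a peak that came within 1 kb of either outer end, and regions were peaks merged at 1 bp overlap. List values were compared by exact two-sided permutation tests. Summits of shared regions were compared on the log2 scale with limma 3.58.1 (R 4.3.3) and Benjamini-Hochberg adjustment, a test chosen after the files were seen. The other steps used Python 3.11.15, pandas 2.3.3, numpy 2.4.6 and scipy 1.17.1, and the calls, the limma fit and the solved fragments were tested on simulated data.

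Named genes were 15 fixed genes, the 10 best-ranked gained and lost genes by -log10 q in each call, gained or lost members of 19 gene lists (438 of 439 genes matched) and 5 gained and 5 lost regions away from gene ends. A few list members and leading genes are not reported here. Other list members and shared regions were chosen for the text after their values were seen. The members and lists were chosen with earlier results of these data known. The alternatives were a stricter q, equal top peaks, a 2.5 kb window, gene start alone, summits, peaks anywhere over a gene, other scaling, a replicate block and leaving out lists.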

Additional observations from a re-analysis of the deposited data

How the results depend on the processing

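Counts of gained and lost genes moved with the settings, while no setting called a shared region. The 3 against 3 calls gave 18 gained and 0 lost genes with -log10 q of at least 5, 247 and 55 without replicate 1, and 13 and 4 with equal top peaks. Of the 34 genes gained in the main call, 9 were kept with the stricter q and 2 with equal top peaks. Counting peaks anywhere over the gene gave 2 lost genes. For regions the counts were 20 gained and 0 lost, 249 and 79, and 14 and 6 in the order of the first 3 settings. Over replicates 2 and 3, equal top peaks gave 127 gained and 93 lost genes. The stricter q gave 174 gained and 40 lost genes there, with 99 and 16 of them in the main call over those replicates. The cause of these shifts was not tested. The shared regions gave 0 calls with a pseudocount of 1, with a replicate block, with scaling to the lowest background (3 at an unadjusted p under 0.05) and without each list in turn.

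Leaving out each list in turn gave 35 to 241 gained and 1 to 51 lost genes, 34 to 244 gained and 2 to 74 lost regions, and over replicates 2 and 3 361 to 1063 gained and 103 to 377 lost genes. The log2 ratio ranged from -0.18 to 0.91 for list length, -0.18 to 1.03 for covered bases, -0.0085 to 0.11 for peak width and -0.14 to 0.98 for genes with a peak. Each of these 4 turned without DMSO replicate 1 alone (-0.18, -0.18, -0.0079 and -0.14), with the short CDK-TCIP1 replicate 1 kept. Width also turned without CDK-TCIP1 replicate 2. The share inside genes ranged from -1.86 to 0.81 percentage points and turned without DMSO replicate 2 (0.813). The summit position ranged from -0.083 to 2.42 bp and turned without CDK-TCIP1 replicate 2 (3.25 bp without replicate 1 of both groups), and the downstream edge from 27.8 to 243.8 bp.

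Both groups carry replicate numbers 1 to 3 in the labels. Same-numbered lists deviated together with correlations of 0.00106, -0.0426 and 0.118 for presence over regions and 0.0715, 0.129 and 0.0356 for log2 summit fragments over shared regions. Neither measure gave over 0.1 for every pair, so the numbers were not taken as pairs. Both run over regions, so they do not measure a shift of a whole list. List length, covered bases, width, genes with a peak and the share at gene ends were higher in the treated list of all 3 same-numbered pairs. The share between genes was higher in 0 of them. With the replicate number as a block, the exact permutation p was 0.25 for list length, covered bases, width, genes with a peak and the shares at gene ends and between genes, and 0.25 is the smallest that 8 sign changes allow. It was 0.5 for the share inside genes. At shared starts, the downstream edge and the share of peaks reaching over 1 kb downstream were higher in the treated list of all 3 pairs. The exact permutation p with the block was 0.25 for each. The block left the limma calls at 0 (46 at an unadjusted p under 0.05, smallest adjusted p 0.124).

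The depth of the lists is unknown. A peak of 8 to 20 fragments lies near the lowest called, so absence from a list does not show absence of polymerase.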

Other observations

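Some of the highest polymerase peaks lay at genes of the transcription machinery itself, with overlapping groups. POLR2A, the largest subunit of Pol II and the protein that 8WG16 binds, had 117, 232 and 202 fragments in DMSO and 138, 235 and 159 after CDK-TCIP1. GTF2A1, a subunit of the initiation factor TFIIA, had 72, 122 and 103 against 88, 187 and 110. MEPCE, which caps the 7SK RNA that holds P-TEFb inactive, had 82, 124 and 91 against 87, 121 and 109. These genes were picked after their values were seen.

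A region over RNU5B-1, a gene of the U5 spliceosomal RNA (chr15:65304490-65305693), had 37, 56 and 36 fragments in DMSO and 52, 87 and 52 after CDK-TCIP1 (log2 ratio 0.43 after centring, adjusted p = 0.390 by limma). The groups overlapped in fragments and not after centring. The window shared by DNAJC30 and BUD23, a methyltransferase of ribosomal RNA (chr7:73683226-73683836), had 24, 46 and 25 against 21, 35 and 14 (log2 ratio -0.59, adjusted p = 0.322 by limma). IFI30, a lysosomal thiol reductase of antigen processing (chr19:18173173-18174509), had 29, 55 and 33 against 24, 35 and 28 (log2 ratio -0.51, adjusted p = 0.338 by limma). None of the 3 passed the threshold.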
